A study of Mus musculus with 6 samples.

Results

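The dystrophin-glycoprotein complex joins the actin cytoskeleton of a muscle fibre to the basal lamina around it. The 8 genes described here encode 7 of its parts and caveolin 3, the caveolin of striated muscle: the sarcoglycans Sgca, Sgcb and Sgcd, dystroglycan (Dag1), dystrophin (Dmd), beta-1-syntrophin (Sntb1), alpha-dystrobrevin (Dtna) and Cav3. They were chosen with earlier results of these data known. Their probe sets were taken by gene symbol, as every probe set that GEO's platform annotation lists under a symbol of this set. All 8 were found, each with 1 probe set, among 19938 genes with 1 symbol and 35556 rows in all. Signals came from 6 whole-transcript arrays of wild type C2C12 cells, an established mouse line of myoblasts that fuse into myotubes when serum is lowered. Cells were grown in 10% fetal bovine serum, moved to 2% horse serum, and on day 1 of differentiation transfected with a control siRNA (siCon, 3 arrays) or with an siRNA against the long noncoding RNA H19 (simH19, 3 arrays), and RNA was taken 40 h later. The labels do not say whether the triplicates were separate cultures. The p-values therefore reflect only the variation among these samples, possibly technical in origin.

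Dystroglycan is made as a single precursor and split into an extracellular alpha subunit, which binds laminin through its sugar chains, and a beta subunit that crosses the membrane and binds dystrophin. The sarcoglycans form a membrane subcomplex beside it, in which epsilon-sarcoglycan can stand in for the alpha form outside striated muscle. Syntrophins and dystrobrevins bind dystrophin on the inner side and carry signalling proteins such as neuronal nitric oxide synthase. In humans, losses of dystrophin, of single sarcoglycans or of caveolin 3 cause muscular dystrophies, and most of these proteins become abundant as myoblasts turn into myotubes.

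Values are log2 expression per probe set, normalised between arrays by the authors. A difference is the mean log2 value with H19 siRNA minus that with control siRNA, with the moderated standard error of limma. Calls use a Benjamini-Hochberg adjusted p under 0.05 over 21559 units, 1 probe set for each gene plus probe sets listed under several genes. Signals of different probe sets depend on their probes, so levels were compared between groups and not between genes. The probe set that follows the targeted transcript, listed under Mir675 (hosted by H19) and Supt6, was at 26.9% of its control level, with a limma adjusted p of 1.8e-05. Pairs of arrays correlated at 0.9958 to 0.9975 (Pearson's r over the whole table), and the second H19 siRNA array had the lowest mean r to the others, 0.9962. As the arrays held RNA of whole cultures, a different number of differentiated cells and a different amount of RNA in each cell cannot be told apart.

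After H19 knockdown, alpha-sarcoglycan and dystroglycan had higher signals on all 3 arrays, and the other 6 genes overlapped between groups. None of the 8 genes passed the threshold in limma, while 2 had an unadjusted p under 0.05, both higher. Over all units 0.199% were called in either direction, and 6.61% were higher with an unadjusted p under 0.05. Under other settings limma called 2 of the 8 genes with an intensity trend and robust variance (2.02% of all units), 1 with array weights (0.325%), 1 of 7 tested with a filter on dim units at the 30th percentile (0.736%) and 2 of 6 tested with a filter at the median (2.47%). Groups did not overlap, with H19 siRNA higher, for 2 of the 8 genes and for 10.5% of all units. Differences of the 8 genes ran from -0.04 for Sgcd to 0.27 for Sgca, and their median was 0.04 against 0.01 over all units. Of the 8 differences 7 were positive, against 58% of all units, or 5 after each array was centred on its median, against 44.7% of all units. As the 8 genes were chosen with earlier results of these data known, these comparisons with all units are descriptions and not tests. Of 10 other measured genes of the complex, 5 were positive and 5 negative, with a median of -0.0029.

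**Figure D1:**
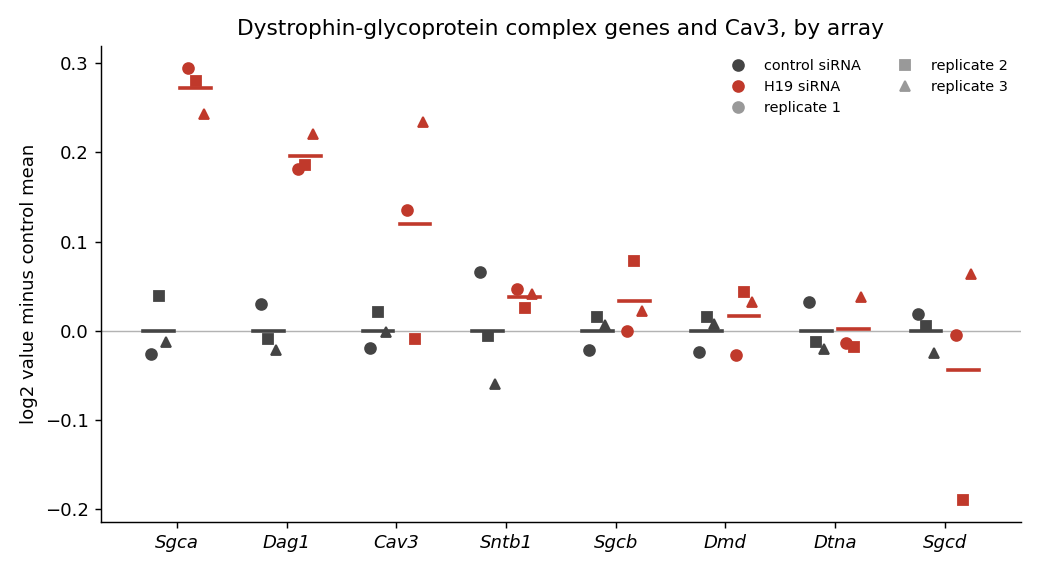
Log2 value on each array minus the mean of the 3 control arrays (vertical axis), for the 8 genes (horizontal axis). Grey points are control siRNA and red points H19 siRNA arrays, shapes give the replicate number, and bars are group means. The red and grey points are apart for Sgca and Dag1 and overlap for the other 6 genes.

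The stretches before the annotated start sites of the pair with separate groups, and of the muscle-specific Cav3 for comparison, are shown because the E-box, the site bound by MyoD and myogenin, can be read in them. Each is the 250 bases before the start in RefSeq's GRCm38.p6, 5′ to 3′ on the strand of the gene, and capitals mark every CANNTG E-box.
Sgca (chr11:94976328-94976577, minus strand): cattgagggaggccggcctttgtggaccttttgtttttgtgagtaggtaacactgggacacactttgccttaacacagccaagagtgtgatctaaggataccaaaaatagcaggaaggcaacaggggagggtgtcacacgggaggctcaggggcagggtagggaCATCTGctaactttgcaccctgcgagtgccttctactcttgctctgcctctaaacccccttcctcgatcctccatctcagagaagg
Dag1 (chr9:108263959-108264208, minus strand): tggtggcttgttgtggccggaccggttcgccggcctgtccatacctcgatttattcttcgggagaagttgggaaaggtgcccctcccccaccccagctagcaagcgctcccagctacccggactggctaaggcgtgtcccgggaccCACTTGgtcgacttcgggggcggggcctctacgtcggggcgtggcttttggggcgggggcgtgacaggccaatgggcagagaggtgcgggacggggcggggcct
Cav3 (chr6:112459255-112459504, plus strand): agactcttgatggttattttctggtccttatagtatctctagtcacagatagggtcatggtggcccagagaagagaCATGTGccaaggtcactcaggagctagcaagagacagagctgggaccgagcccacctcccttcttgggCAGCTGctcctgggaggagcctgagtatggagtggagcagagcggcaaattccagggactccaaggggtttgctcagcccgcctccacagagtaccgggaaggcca
The Sgca stretch holds 1 E-box, CATCTG, which begins 86 bases before the start. The Dag1 stretch also holds 1, CACTTG, beginning 104 bases before the start, together with 3 GGGCGG boxes. Cav3 has 2, CATGTG and CAGCTG, and the second is the only CAGCTG in the stretches found for these genes.

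Sequences were found for 6 of the 8 genes, with 2 start sites each for Dag1 and Dmd. Sntb1 and Dtna are named only. Both strands were searched, and CAGCTG is also counted as a CANNTG E-box. A CANNTG E-box occurs in 66.2% and CAGCTG in 13.0% of the 32851 stretches of this length before RefSeq starts, so the presence of a CANNTG E-box does not set the pair apart. Sgcd had 2 CANNTG E-boxes and Sgcb none. One of the Dmd starts had 2, together with a match to the MEF2 consensus (2.92% of all stretches) and a CArG box, the site of serum response factor (1.47% of all stretches). No other stretch of these genes held a MEF2 or a CArG match. The 2 Dag1 stretches overlap and share their CACTTG, so they are not separate observations. They were rich in G and C, at 67.6% and 74.8%, against 52.8% for Sgca and 56% for Cav3. The other stretches were at 58.0% for Sgcd, 58.4% for Sgcb, and 45.2% and 60.0% for the Dmd starts. The median over all stretches was 52.4%. These matches describe letters in a window and were not set against binding data.

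Of the 3 sarcoglycans, Sgca had separate groups and the others overlapped. Sgca encodes alpha-sarcoglycan, the form restricted to striated muscle. It read 9.34, 9.40 and 9.35 on the siCon arrays and 9.66, 9.65 and 9.61 on the simH19 arrays, so the lowest H19 siRNA array lay above the highest control array. The difference was 0.27 (SE 0.04, 95% interval 0.19 to 0.36), or 1.21-fold, with a limma adjusted p of 0.0577. An exact two-sided permutation test gave 0.1, the smallest p that 3 against 3 arrays allow. Sgca passed the threshold with an intensity trend and robust variance (adjusted p = 0.00214), with array weights (0.0401) and with a filter on dim units at the 30th percentile (0.0277) or the median (0.00836). Its adjusted p was 0.11 after median centring and ran from 0.13 to 0.282 with 1 array left out, where the difference stayed between 0.26 and 0.29.

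Sgcb, the beta-sarcoglycan that is also made outside striated muscle, read 11.85, 11.89 and 11.88 on the siCon arrays and 11.87, 11.95 and 11.90 on the simH19 arrays. These groups overlapped, and the difference was 0.03 (95% interval -0.05 to 0.12, limma adjusted p = 0.783). Sgcd, delta-sarcoglycan, read 9.00, 8.99 and 8.95 on the siCon arrays and 8.97, 8.79 and 9.04 on the simH19 arrays. The second H19 siRNA array was the lowest of all 6 and replicate 3 the highest. Sgcd differed by -0.04 (95% interval -0.20 to 0.11, limma adjusted p = 0.853), and by 0.03 without H19 siRNA replicate 2.

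The value of Sgca was also set against that of other genes within each array, as a description and with no test, since Sgca is the gene with the largest difference of the 8. The log2 value of Sgca minus that of Sgcb was -2.51, -2.48 and -2.53 on the siCon arrays and -2.21, -2.31 and -2.29 on the simH19 arrays. These sets did not overlap, and the gap differed by 0.24. Against Sgcd the gap differed by 0.32, from 0.39 ± 0.04 to 0.70 ± 0.15 (SD over 3 arrays each). Sgce, epsilon-sarcoglycan, the counterpart of Sgca in smooth muscle and other tissues, read 11.06, 11.09 and 11.06 on the siCon arrays and 10.92, 10.93 and 10.99 on the simH19 arrays. All 3 H19 siRNA values of Sgce were below all control values, a difference of -0.12 (SE 0.04, limma adjusted p = 0.288).

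Set against Sgce, the log2 value of Sgca differed by 0.40, from -1.71 ± 0.02 to -1.31 ± 0.07 (SD over 3 arrays each), the widest of the 8 pairs computed. Sgce was put into this comparison after its values were seen. The gaps of Sgca to Dag1 and to Cav3 differed by 0.08 and 0.15 with overlapping groups.

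Dystroglycan was the other gene with separate groups. Dag1 read 12.38, 12.34 and 12.33 on the siCon arrays and 12.53, 12.53 and 12.57 on the simH19 arrays. Every H19 siRNA array was above every control array, and the spread within groups was small, with SDs of 0.03 and 0.02. The difference was 0.20 (SE 0.03, 95% interval 0.12 to 0.28), or 1.15-fold, with a limma adjusted p of 0.111 and an exact permutation p of 0.1. It passed with an intensity trend and robust variance (adjusted p = 0.000246) and with the filter at the median (0.0161), but not with array weights (0.0798) or the filter at the 30th percentile (0.0515). With 1 array left out the difference stayed between 0.18 and 0.21, with adjusted p-values from 0.169 to 0.417.

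On the cytoplasmic side, Dmd, Sntb1 and Dtna did not differ beyond their spread, whereas Sntb2 and Nos1, described below, had separate groups. Dmd, which encodes dystrophin, read 4.76, 4.80 and 4.79 on the siCon arrays and 4.75, 4.83 and 4.81 on the simH19 arrays, with overlapping groups. Its difference was 0.02 (95% interval -0.07 to 0.10, limma adjusted p = 0.901). The mean signal of the Dmd probe set was at percentile 13.1 of all units, and without detection calls how far it stood above background could not be judged. Sntb1, a syntrophin, read 10.52, 10.45 and 10.40 on the siCon arrays and 10.50, 10.48 and 10.50 on the simH19 arrays. The first control array was the highest of the 6, and the difference was 0.04 (95% interval -0.06 to 0.14, limma adjusted p = 0.786).

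Dtna, which encodes alpha-dystrobrevin, read 9.94, 9.90 and 9.89 on the siCon arrays and 9.89, 9.89 and 9.95 on the simH19 arrays. Its groups lay over each other, with a difference of 0.0019 (95% interval -0.08 to 0.09, limma adjusted p = 0.991). For Dmd, Sntb1, Dtna, Sgcb and Sgcd the upper bounds of the 95% intervals, at most 0.14, were below the difference of Sgca. The upper bound of Cav3 was 0.269, against a difference of 0.273 for Sgca. That difference is the largest of the 8, and its own 95% interval was 0.19 to 0.36.

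Caveolin 3, which forms the caveolae of the muscle membrane and binds beta-dystroglycan, varied among the H19 siRNA arrays. Cav3 read 7.01, 7.05 and 7.02 on the siCon arrays and 7.16, 7.02 and 7.26 on the simH19 arrays. Of the H19 siRNA arrays, replicates 1 and 3 were above all controls and replicate 2 lay within them, so the SD was 0.12 with H19 siRNA against 0.02 with control siRNA. The difference was 0.12 (SE 0.06, 95% interval -0.03 to 0.27, limma adjusted p = 0.547, exact permutation p = 0.3). Without H19 siRNA replicate 2 it was 0.18 with an adjusted p of 0.22, and without H19 siRNA replicate 3 it was 0.06 with an adjusted p of 0.682. Sgcd and Cav3 thus shared their lowest and highest H19 siRNA array, replicates 2 and 3.

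**Figure D2:**
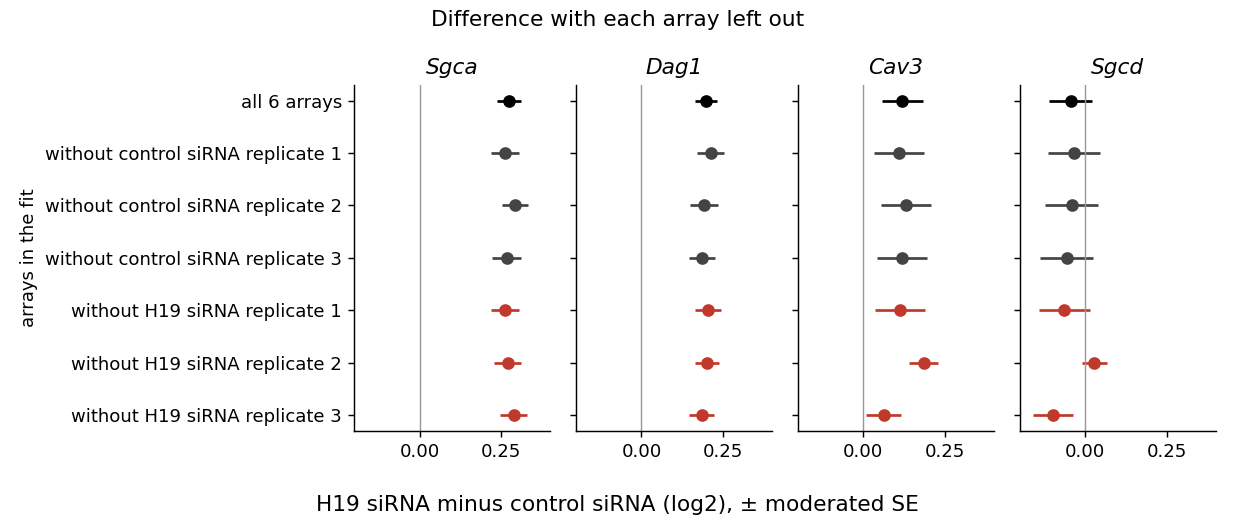
Difference, H19 siRNA minus control siRNA on the log2 scale, with the moderated SE (horizontal axes), for 4 genes with all 6 arrays (black) or with 1 array left out (grey, a control array; red, an H19 siRNA array). Sgca stays between 0.26 and 0.29 and Dag1 between 0.18 and 0.21, whereas Cav3 runs from 0.06 to 0.18 and Sgcd from -0.10 to 0.03.

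Other genes of the complex lay on both sides of 0. Of 12 listed, 10 were measured, and 0 passed the threshold in limma, with 1 higher and 2 lower at an unadjusted p under 0.05. Their median difference was -0.0029, with 5 positive and 5 negative. Nos1, neuronal nitric oxide synthase, which syntrophin anchors at the muscle membrane, read 8.87, 8.84 and 8.84 on the siCon arrays and 9.11, 9.00 and 9.17 on the simH19 arrays. All H19 siRNA values of Nos1 were above the controls, by 0.25 on average (SE 0.05, limma adjusted p = 0.152). Sntb2, the beta-2 syntrophin, read 10.19, 10.18 and 10.17 on the siCon arrays and 10.11, 10.04 and 10.02 on the simH19 arrays. This put every H19 siRNA value of Sntb2 below the controls, at -0.12 (SE 0.04, limma adjusted p = 0.307), while Sntb1 overlapped. Nos1 passed with the intensity trend (adjusted p = 0.0209) and with the filter at the median (0.0345), and Sgce with the intensity trend (0.0416). Utrn, which encodes the dystrophin relative utrophin, read 10.13 ± 0.04 with siCon and 10.09 ± 0.04 with simH19 (SD over 3 arrays each).

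**Figure D3:**
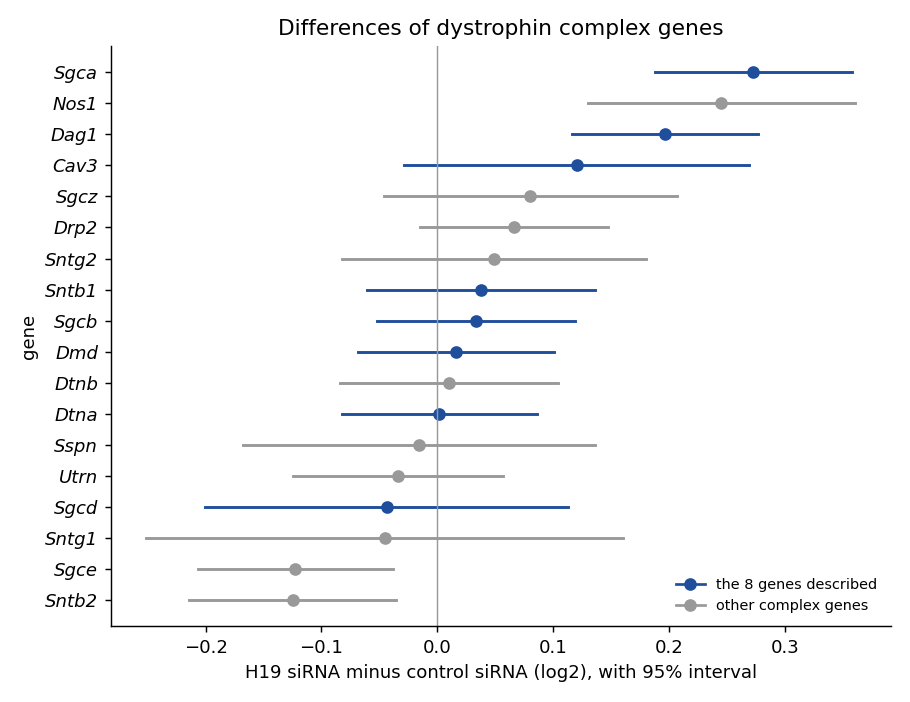
Difference, H19 siRNA minus control siRNA on the log2 scale, with its 95% interval (horizontal axis) for the 8 genes described (blue) and 10 other genes of the complex (grey), ordered by size (vertical axis). Sgca, Nos1 and Dag1 lie highest, with intervals above 0, and Sgce and Sntb2 lowest, with intervals below 0.

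Genes for the enzymes that build the laminin-binding sugars of dystroglycan had no call. Of 18 listed genes 14 were measured, 0 passed in limma, 1 had an unadjusted p under 0.05, and 5 were positive and 9 negative, with a median of -0.02. Dpm3, a subunit of dolichol-phosphate mannose synthase, had the smallest p, at -0.17 (SE 0.04, limma adjusted p = 0.248), with all 3 H19 siRNA arrays below the controls. Dpm1, the catalytic subunit, differed by -0.11 with overlapping groups, and Pomt1, an O-mannosyltransferase, by 0.08. Among 12 basal lamina genes 0 passed, 2 had an unadjusted p under 0.05 and the median was 0.01. Nid1, nidogen, was lower on every H19 siRNA array (-0.16, SE 0.04, limma adjusted p = 0.22), and agrin (Agrn) was higher on every one (0.11, adjusted p = 0.443), as was Nid2 (0.08, adjusted p = 0.472).

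Caveolar genes other than Cav3 had a median difference of 0.02, with 0 of 9 passing and 2 higher at an unadjusted p under 0.05. Cavin4, the muscle cavin, read 9.66 ± 0.03 with siCon and 9.78 ± 0.04 with simH19 (SD over 3 arrays each), a difference of 0.12 with separate groups (limma adjusted p = 0.329). Cavin2 differed by 0.08 and Pacsin3 by 0.08, also with separate groups. Cav1, the caveolin of many cell types, differed by -0.0089 (95% interval -0.09 to 0.07). Of 8 measured membrane repair genes (10 listed) 0 passed and 1 had an unadjusted p under 0.05, Anxa6, an annexin, at 0.11 (adjusted p = 0.34), and the median was 0.0014.

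Genes of the costamere and of the integrin linkage, the other route from the cytoskeleton to the matrix, had a median difference of 0.04. Of these 20 genes 0 passed, 2 were higher at an unadjusted p under 0.05, and groups were separate for 8 higher and 3 lower, against 10.5% higher and 7.09% lower over all units. Syncoilin (Sync), an intermediate filament protein that binds alpha-dystrobrevin, read 12.11 ± 0.01 with siCon and 12.26 ± 0.02 with simH19 (SD over 3 arrays each), a difference of 0.15 (limma adjusted p = 0.183). Filamin C (Flnc), which binds sarcoglycans in muscle, differed by 0.13 with separate groups (adjusted p = 0.279). Lims1, an adaptor at integrins, differed by -0.08 (adjusted p = 0.465).

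**Figure D4:**
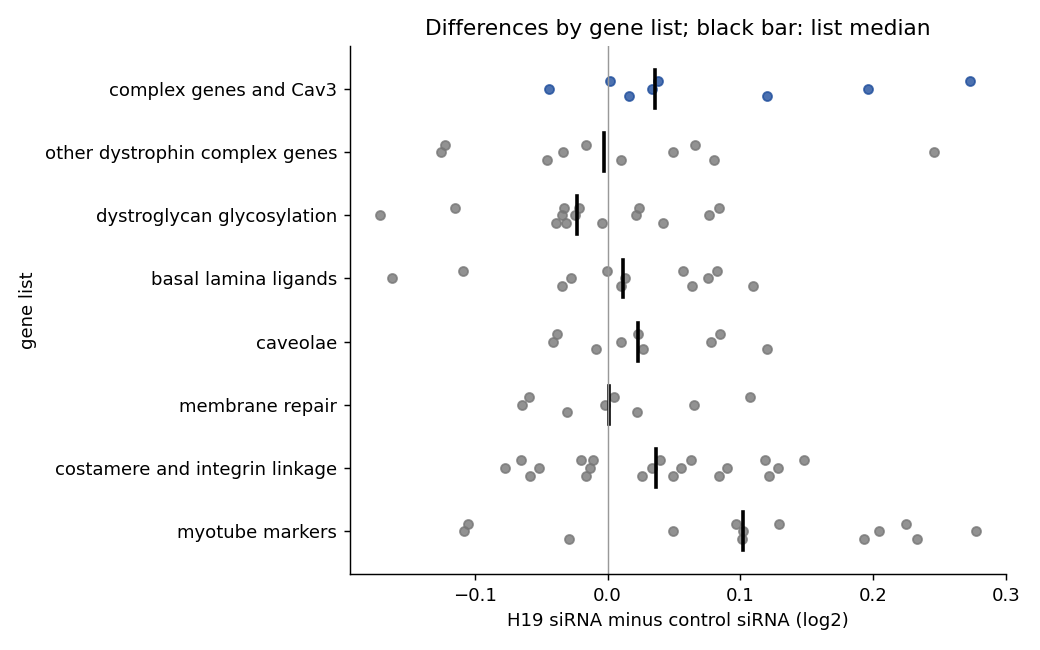
Difference, H19 siRNA minus control siRNA on the log2 scale (horizontal axis), of each measured gene (points) in the 8 genes described (blue) and in 7 related lists (grey); black bars are list medians. Medians lie between -0.02 and 0.04 except for the myotube markers, at 0.10.

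A list named myotube markers was read from the same fit. It mixes Myod1 and Myog, whose products bind E-boxes, with actin and myosin genes such as Acta1 and Myh8. By mean signal the 13 genes ran from percentile 35.5 of all units (Myh8) to 97.3 (Acta1, skeletal actin). Acta1 read 12.47 ± 0.0042 with siCon and 12.57 ± 0.04 with simH19. Myog, myogenin, read 11.18 ± 0.03 with siCon and 11.40 ± 0.02 with simH19 (SD over 3 arrays each). Of 13 markers 10 were positive, 0 passed in limma, 8 were higher and 2 lower at an unadjusted p under 0.05, and the median was 0.10. Their mean log2 value per array ran from 9.90 to 9.92 on siCon arrays and from 10.00 to 10.03 with H19 siRNA. Cdh15, M-cadherin, differed by 0.28 (limma adjusted p = 0.0519), Myog by 0.22 (0.0779) and Myod1 by 0.23 (0.0965), beside 0.27 for Sgca and 0.20 for Dag1. Mef2c and Myh8, perinatal myosin, lay lower on every H19 siRNA array, at -0.10 and -0.11. Ckm, Actn2 and Myh3 had overlapping groups, with differences of 0.10, 0.05 and -0.03.

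In a list named fibroblast markers, of 10 genes, Dcn, decorin, and Lum, lumican, were called lower and 0 were called higher. Their limma differences were -0.50 (adjusted p = 0.00727) and -0.95 (adjusted p = 0.0227). Both calls were lost in the fit blocked on replicate number (adjusted p = 0.135 and 0.133) and in 5 of the 6 fits with an array left out, where adjusted p-values reached 0.0774 for Dcn and 0.143 for Lum, and that of Lum also with every row as a unit (0.0866). Of the 10 differences 7 were negative, and at an unadjusted p under 0.05 4 genes were lower and 1 higher. The higher one was Postn, periostin, a matrix protein, at 0.09 (adjusted p = 0.439) with every H19 siRNA array above the controls. The mean log2 value of this list per array ran from 9.43 to 9.47 on siCon arrays and from 9.23 to 9.30 with H19 siRNA. Pdgfra, a receptor of fibroblasts, differed by -0.25 (adjusted p = 0.268), and no marker was listed at 0. Whether the shifts of the lists named myotube and fibroblast markers follow numbers of such cells was not tested. Whether these shifts have a part in the differences of Sgca and Dag1 was not tested either.

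Genes whose 6 values followed those of Sgca most closely were looked for among 19937 others. Pearson's r over the 6 arrays was highest for Pck2, a mitochondrial phosphoenolpyruvate carboxykinase (r = 0.999), Nop56, a nucleolar protein (0.998), and Cxcr4, a chemokine receptor (0.997). Cxcr4 also resembled Sgca in size, with 10.18, 10.27 and 10.19 on the siCon arrays and 10.50, 10.51 and 10.46 on the simH19 arrays, while Pck2 and Nop56 differed by 0.08 and 0.07. With 6 arrays in 2 groups, 491 genes had an r above 0.9. Of the 8 genes described, Dag1 was nearest to Sgca (r = 0.94), followed by Cav3 (0.597), and Sgcd was the farthest (-0.319). With so few arrays, r largely restates the group difference, so it does not show that Sgca and Dag1 varied together. Within groups they did not run in parallel. Control replicate 1 was the lowest for Sgca and the highest for Dag1. Over the H19 siRNA replicates Sgca fell (9.66, 9.65 and 9.61) while Dag1 did not (12.53, 12.53 and 12.57).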

How the data were processed

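RNA of C2C12 cells was measured on 6 arrays, 3 for each siRNA, grouped by their titles. The deposited values are log2 expression values from RMA, which the authors ran with Affymetrix Expression Console as the submitters' processing notes record; RMA corrects background, normalises arrays by quantiles and summarises probe sets, which compresses differences near background. Neither a software version nor a probe set annotation is stated in the labels, and depth has no meaning for arrays, whose number limits precision.

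Probe sets took their gene names from the platform annotation at GEO, and the highest mean probe set stood for a gene, which left 21559 of 35556 rows as units. Groups were compared with lmFit and eBayes of limma 3.58.1 (R 4.3.3), two-sided, without covariate or filter, after the fit was tested on simulated data. In the simulated data the fit called 43.0% of units changed by 0.25 and 96.1% of those changed by 0.5. Of its calls 5.19% were false. Exact permutation tests of single genes ran over all splits of the 6 arrays. Named genes are the 8 genes and up to 3 genes of smallest p of each of 13 lists. The probe set following H19 and the 3 genes most like Sgca are named too. Utrn, Cav1, Acta1, Mef2c, Myh8, Ckm, Actn2, Myh3 and Postn were added after their values were seen. The 8 genes, the lists and the tests were chosen with earlier results of these data known. Of 134 list entries 124 were measured, and the others were not analysed here. Alternatives were a replicate block, another variance model, array weights, filters on dim units, median centring, a second quantile normalisation, averaged probe sets, every row as a unit and leaving out each array.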

Additional observations from a re-analysis of the deposited data

How the results depend on the processing

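The differences of Sgca and Dag1 were positive under all 15 alternatives, between 0.25 and 0.29 for Sgca and between 0.17 and 0.21 for Dag1, and passed the threshold in 4 and 2 of them. The number of the 8 genes called was 0 with all arrays, 2 with an intensity trend and robust variance, 1 with array weights, 1 with the filter at the 30th percentile (7 of the 8 tested), 2 with the filter at the median (6 tested) and 0 in every fit that left out an array. Units called were 43 in the fit described and 435, 70, 111 and 266 under those 4 settings, 11 with every row as a unit, and 1 to 21 with an array left out. List genes called, 2 in that fit, were 14 with the intensity trend, 5 and 8 with the filters at the 30th percentile and the median, 1 with every row as a unit and 0 to 2 with an array left out. Filters test fewer units and an array left out leaves fewer samples. The filters also changed the fit itself. For Sgca the moderated SE was 0.0358 without a filter, 0.0323 with the 30th percentile filter and 0.0298 with the median filter. Its unadjusted limma p was 1.4e-04, 8.4e-05 and 2.8e-05 in these fits. The cause of the changes in calls was not tested. Of 117 differences of the 8 genes under alternatives 110 kept their sign. Those that turned were all near 0: Dmd at -0.0063 after median centring and -0.0045 after a second quantile normalisation, Dtna at -0.0205 after median centring and from -0.0162 to 0.0182 with an array left out, and Sgcd from -0.0975 to 0.0294, above 0 only without H19 siRNA replicate 2. With the replicate number as a block 3 units, 0 of the 8 genes and 0 list genes were called, and Sgca had an adjusted p of 0.327 and Dag1 of 0.446. Same-numbered arrays share only a number: their deviations from group means correlated at -0.0172, -0.134 and -0.136, and none of the 6 arrays correlated best with its own number. RMA compresses differences of dim probe sets, and how far any signal stood above background could not be judged.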

Other observations

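Markers of 5 other cell types had 0 genes past the threshold in limma. Smooth muscle markers (7 genes, 1 with an unadjusted p under 0.05) had a median difference of 0.02, and Lmod1, leiomodin 1, a smooth muscle actin regulator, was the member with the smallest p, at 0.22 (limma adjusted p = 0.231) with every H19 siRNA array above the controls. Median differences were 0.08 for 7 adipocyte, 0.02 for 5 endothelial, 0.0099 for 4 glial and neuronal and -0.0054 for 5 leukocyte markers, with 0, 1, 0 and 1 genes at an unadjusted p under 0.05. The endothelial gene was Emcn at 0.20 with overlapping groups, and the leukocyte gene was Cd68, a lysosomal glycoprotein of macrophages, at -0.19 with all H19 siRNA arrays below the controls.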
